A study of Mus musculus with 10 samples.

Results

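Triple-positive cells were optic nerve cells with at least 1 unique molecular identifier (UMI, a counted RNA molecule) of each of the genes Gpnmb, Spp1 and Apoc1. They numbered 272 of the 959 optic nerve cells, in a series of 1168 cells. All cells were deposited as macrophages or microglia, the phagocytes of nervous tissue, and their RNA was read cell by cell after capture in droplets. The mice were wild-type 129S1/SvlmJ animals of both sexes, aged 10 weeks. In the injured groups the optic nerve had been crushed at 8 weeks of age, 2 weeks before collection, a lesion that severs the axons of retinal ganglion cells, and the uninjured groups had no crush. Optic nerve libraries 1 and 3 came from injured nerves and libraries 2 and 4 from uninjured nerves. The labels do not tie libraries to animals, so the spread between libraries may be technical. The members were chosen by values of these data, so the levels of Gpnmb, Spp1 and Apoc1 in them are a description and carry no test.

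Gpnmb encodes a membrane glycoprotein of late endosomes and phagosomes, Spp1 encodes the secreted matrix protein osteopontin, and Apoc1 encodes a small apolipoprotein. Macrophages and microglia that have taken up lipid-rich debris, such as the myelin of degenerating axons, are known to express these genes together with Lgals3 (galectin 3) and Fabp5 (a fatty acid binding protein). Such cells break down their cargo in lysosomes with cathepsins and other hydrolases, and export lipid on apolipoprotein E. The receptor Trem2 and its adaptor Tyrobp are known to sense lipids and to drive this program in microglia.

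The 250 bases before the annotated start are printed for 2 genes of the rule, to show the promoter letters just ahead of them. They come from RefSeq on build GRCm38.p6 and are written 5′ to 3′ on the strand of the gene. The windows are chr6:49036268-49036517 (plus strand) for Gpnmb and chr5:104434861-104435110 (plus strand) for the first of 2 listed starts of Spp1. Capitals mark matches to 5 motifs searched on both strands, which were the E-box CACGTG, the M-box CATGTG, an AP-1 site TGACTCA, a PU.1 site GAGGAAGT and a TATA box TATAAA.
Gpnmb: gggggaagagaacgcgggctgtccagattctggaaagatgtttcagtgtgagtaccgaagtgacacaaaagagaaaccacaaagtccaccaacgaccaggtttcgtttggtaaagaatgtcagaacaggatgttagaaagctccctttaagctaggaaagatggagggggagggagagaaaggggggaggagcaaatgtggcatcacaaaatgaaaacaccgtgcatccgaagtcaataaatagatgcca
Spp1: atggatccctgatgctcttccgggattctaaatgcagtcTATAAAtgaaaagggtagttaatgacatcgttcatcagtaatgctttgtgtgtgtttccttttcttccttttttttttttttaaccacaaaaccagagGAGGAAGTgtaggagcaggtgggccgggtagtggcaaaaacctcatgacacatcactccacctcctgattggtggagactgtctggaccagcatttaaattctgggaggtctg
Spp1 held the PU.1 letters from 113 to 106 and the TATA letters from 211 to 206 bases before the start, and Gpnmb held none of the 5 motifs. Of the cathepsins described below, Ctsd held the E-box from 245 to 240 and from 98 to 93 bases before its RefSeq start, and Ctsl from 236 to 231. The windows of both overlap exons of GENCODE M21, in which the genes begin further upstream, so part of each may be transcribed. The E-box, which the lysosomal regulators of the MiT/TFE family are known to bind, lay in the windows of 9 of the 38 cathepsin and lysosome genes that had an entry, or 23.7%, and in 6.05% of 27025 promoters in all. The M-box, a related element, was in 5.26% of the 38 windows and 12.2% of all promoters, the AP-1 letters in 10.5% and 4.43%, the PU.1 letters in 5.26% and 2.44% and the TATA letters in 13.2% and 12.97%. Of the 9 genes with the E-box, the 8 that were measured had a median log2 ratio of 0.80 between triple-positive and matched cells, against 0.55 for the 26 measured genes without it. The ranges overlapped, from 0.05 (Ctsf) to 1.39 (Ctsl) with the E-box and from -0.36 (Ctsc) to 1.16 (Cd63) without it. A list of MiT/TFE and lipid regulators had a median log2 ratio of -0.22, with 4 of 17 genes above 0. Any part of these regulators in the ratios was not tested. The motif matches describe the letters alone and are not binding sites.

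Of the 272 triple-positive optic nerve cells, 270 lay in injured library 3, where they were 39.6% of 682 cells (95% Clopper-Pearson interval 35.9% to 43.4%). Injured library 1 held 2 among 146 cells, or 1.37% (0.166% to 4.86%). Uninjured library 2 held 0 of 103 cells, which allows a share of up to 2.91%, and uninjured library 4 held 0 of 28 cells, which allows up to 10.7%. All intervals cover counting error only. The injured libraries thus lay far apart, and library 1 could not be told from the uninjured libraries within these limits. The mean share was 20.5 percentage points higher in injured than in uninjured libraries, with p = 0.333 in an exact two-sided permutation test, the smallest p that 6 assignments of 4 libraries allow. Without library 3 the difference was 1.37 points, and without library 1 it was 39.6 points. In retina 6 of 209 cells carried all 3 genes, 5 among 109 cells of an injured pool and 1 among 31 cells of an uninjured library.

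Detection of 3 genes at once depends on depth, and triple-positive cells were deep cells. Their median total was 12316 UMIs in library 3, against 1361 UMIs for the 412 other cells there. Of the library 3 cells with under 1000 UMIs 24 of 182 were triple-positive, or 13.2%, whereas 125 of the 147 cells with 16000 UMIs or more were, or 85.0%. At equal depth the libraries still differed in their values. Among cells of 1000 to 2000 UMIs the share was 21.9% of 137 cells in library 3 (15.3% to 29.8%) and 0 of 39 in library 1, which allows up to 7.69%. After each cell was thinned to 1000 UMIs, which left out 182 shallower cells of library 3, 66 of library 1, 19 of library 2 and 9 of library 4, the expected share was 22.7% in library 3, 0.0457% in library 1 and 0% in libraries 2 and 4. The unthinned shares of the same cells were 49.2% in library 3 and 2.5% in library 1. The plot of shares by depth shows the same order.

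**Figure D1:**
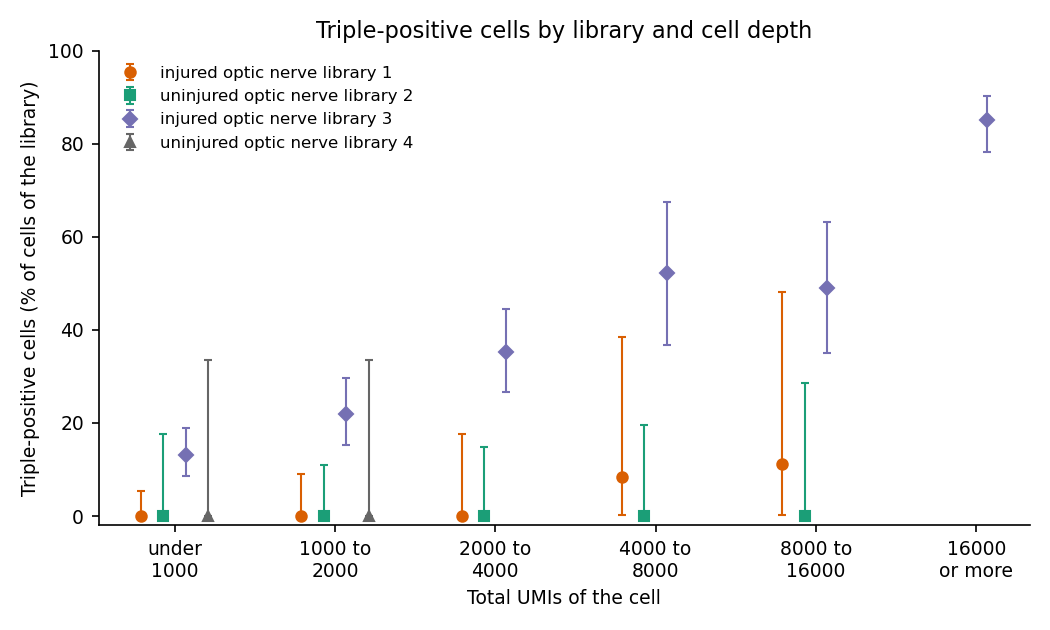
Share of triple-positive cells (y axis, percent of the cells of a library) in bands of total UMIs per cell (x axis) for the 4 optic nerve libraries; points are shares, bars are 95% Clopper-Pearson intervals, and bands with under 5 cells are left out. Library 3 goes from 13.2% to 85.0%, while libraries 2 and 4 stay at 0.

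The 3 genes of the rule, Gpnmb at chr6:49036546-49070929 (plus strand), Spp1 at chr5:104435118-104441050 (plus strand) and Apoc1 at chr7:19689481-19692660 (minus strand) of GRCm38, differed in how closely they marked these cells. Spp1 was the most abundant, with 62731 UMIs and a level of 15856 CPM (UMIs per 1000000 UMIs) in the 270 members of library 3, and it was widespread outside them, with a UMI in 78.6% of the other 412 cells. Apoc1 stood at 4629 CPM in members and had a UMI in 54.4% of other cells. Gpnmb, the least abundant, stood at 1698 CPM and had a UMI in 14.3% of other cells, so that Gpnmb was the gene most cells lacked. Per cell, members held a median of 5 Gpnmb, 55 Spp1 and 17 Apoc1 UMIs, and the highest cell held 495, 3056 and 551. Together the 3 genes made up 2.22% of the members' UMIs. The edge of the rule was soft. Among members 87 had only 1 UMI of at least 1 of the genes, with a median total of 2121 UMIs, and 183 had at least 2 UMIs of all 3. Just outside, 238 cells of library 3 carried exactly 2 of the genes, with a median total of 1644 UMIs. Of these, 185 carried Spp1 and Apoc1, 44 carried Gpnmb and Spp1, and 9 carried Gpnmb and Apoc1.

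Cells of the named clusters also held UMIs of these genes. In library 3 a UMI of Spp1 was seen in 66.0% of the 53 oligodendrocyte-like cells (median 1288 UMIs), of Apoc1 in 32.1% and of Gpnmb in 17.0%, and 6 of these cells were triple-positive, or 11.3% (4.27% to 23.03%). In the 33 border macrophage-like cells, which were deeper (median 7971 UMIs), Spp1 was seen in 63.6%, Apoc1 in 18.2% and Gpnmb in 6.06%, at summed levels of 336, 20.4 and 13.6 CPM, and 0 cells carried all 3 genes. The summed levels in the oligodendrocyte-like cells were 6170 CPM of Spp1, 1686 CPM of Apoc1 and 540 CPM of Gpnmb, with up to 498, 166 and 54 UMIs in 1 cell, against 6788, 1469 and 281 CPM in the 412 cells outside the rule. No measure of free RNA was made, so own transcripts, free RNA and RNA of a second cell were not told apart in these cells. Among the shallow members, the 24 cells under 1000 UMIs were 13.2% of their band (median 711 UMIs). This lay inside the interval of the oligodendrocyte-like cells, which were deeper (median 1288 UMIs), so these shares are not at equal depth. In the library 3 band of 1000 to 2000 UMIs the share was 21.9% (15.3% to 29.8%). The source of these UMIs in the shallow members was likewise not tested. Of 2 cell barcodes that occurred in 2 cells each, 1 belonged to a triple-positive cell, and no doublet caller was run.

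The members were set against marker lists and against clusters made without the 3 genes. Of the 272 members, 89 lay in a cluster of shallow cells (435 cells, median 1007 UMIs), 127 in a cluster of deep cells (163 cells, median 20740 UMIs, 160 of them from library 3) and 50 in a cluster led by Tnf, Il1a and Nlrp3, genes of inflammatory signalling. None of these 3 clusters could be named from the markers. The other 6 lay in the oligodendrocyte-like cluster, and 0 lay in the border macrophage-like cluster or in the microglia-like cluster, which held cells of the uninjured libraries only. In 166 members matched for depth, all 10 microglia markers were detected, with a summed 6879 CPM against 5814 CPM in matched other cells. Of these, the resting-state receptor P2ry12 stood at 41.3 CPM and Tmem119 at 56.0 CPM. Of the border macrophage markers 7 of 10 were detected (872 CPM against 969 CPM). Mrc1, the mannose receptor, had a UMI in 2 of 166 members and 22 others and F13a1 in 2 and 10, and Cd163, Lyve1 and Cd209f were at 0 in members. Pf4, a platelet factor also made by macrophages, had a UMI in 73 members and 43 others, Folr2 in 28 and 9 and Ms4a7 in 60 and 57. Of the monocyte markers 5 of 8 were detected (983 CPM against 1407 CPM), of which Fn1, fibronectin, gave 964 and 1338 CPM, with a UMI in 127 members and 111 others. Ly6c2 and Plac8 were at 0 in members, and Ccr2 had a UMI in 2 members and 18 others. Neutrophil markers summed to 132 CPM in members, B cell markers to 16.2 CPM and T and NK cell markers to 0. Lgals3 and Fabp5, which the rule did not use, each had a UMI in 80.4% of all 270 members, against 46.6% and 48.3% of the other cells, which were shallower.

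To compare cells of like depth, each triple-positive cell of library 3 was paired with the other cell of that library nearest in total UMIs, with the larger total at most 25% above the smaller. This gave 166 pairs with medians of 3220 and 3215 UMIs, and left out 104 members with a median of 24742 UMIs, for which too few deep partners existed. The ratios compare summed UMIs and so weigh deep cells most. Of the 1357258 UMIs of the matched triple-positive cells, 52 pairs from 8000 UMIs held 1080212 and 54 pairs under 2000 UMIs held 57086. Only library 3 had enough pairs, so the comparison rests on 1 library and has no test, and its values compare the cells of that library. Of the 4820 genes compared, 62 were at least 2-fold higher in triple-positive cells (1.29%) and 287 at least 2-fold lower (5.95%), and the median log2 ratio over all genes was -0.16. The matched others were mixed, with 123 cells from the unnamed clusters, 25 border macrophage-like and 18 oligodendrocyte-like cells. Among the triple-positive cells these counts were 162, 0 and 4. A list of 8 endothelial markers summed to 416 CPM in matched others and 83.3 CPM in triple-positive cells. Cldn5 had 150 UMIs in 3 of the others and 0 in triple-positive cells. A UMI of any of the 8 was seen in 27 others and 54 triple-positive cells. Without cells of the oligodendrocyte-like and border macrophage-like clusters 29 genes were at least 2-fold higher and 63 lower, 16 and 46 of them shared with the first counts. With each cell weighing the same 159 were higher and 634 lower, 37 and 184 of them shared with the first counts.

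The 12 genes with the largest ratios, by a rule of size, included lysosomal and lipid-binding genes. Fabp5 (chr3:10012548-10016607, plus strand) carries fatty acids in the cytosol, and stood at 1345 CPM in triple-positive cells (95% Poisson interval 1284 to 1409) against 427 CPM in matched others (390 to 466), a log2 ratio of 1.66. It had a UMI in 117 of 166 triple-positive and 87 of 166 other cells, with per-cell medians of 6.10 and 0.572 UMIs per 10000, and the ranges overlapped, up to 74.3 and 70.4. Creg1, a secreted lysosomal glycoprotein, stood at 1244 against 473 CPM (log2 1.39). Timp2, an inhibitor of matrix metalloproteinases, stood at 1118 against 430 CPM (log2 1.38). Lower in level were Il18bp, a secreted decoy for interleukin 18 that overlaps Numa1 in the annotation, at 116 against 24.97 CPM (log2 2.21), Fabp3, the heart-type fatty acid binding protein, at 89.2 against 31.0 CPM (log2 1.52), and Gpx3, a secreted glutathione peroxidase, at 84.0 against 28.4 CPM (log2 1.56). Dkk2, a Wnt regulator, had a log2 ratio of 1.64, Tmem106a 1.57 and Pianp 1.43. Acp5, the tartrate-resistant acid phosphatase, had a log2 ratio of 1.66, but 42.1% of its UMIs lay in 1 cell and the ratio was 0.91 without it and 0 after thinning every matched cell to 1000 UMIs. Folr2, the folate receptor of tissue macrophages, had a log2 ratio of 1.93 from 67 UMIs, and it turned to -0.42 when every matched cell was thinned to 1000 UMIs. The plot of levels in matched cells shows these genes above the 2-fold line.

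**Figure D2:**
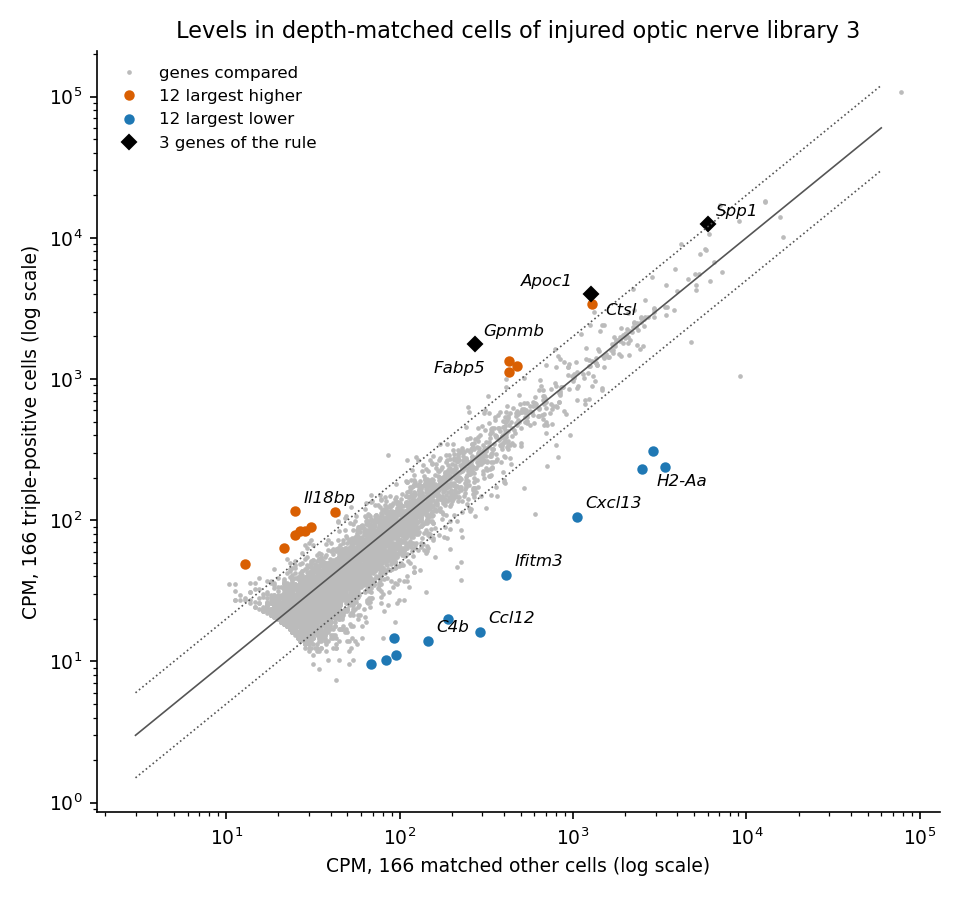
Level of each gene compared, in CPM on log scales, in 166 triple-positive cells (y axis) and 166 depth-matched other cells (x axis) of injured library 3; the solid line marks equal levels and the dotted lines 2-fold differences. Orange points are the 12 largest higher genes, such as Fabp5 at 1345 against 427 CPM, blue points the 12 largest lower genes, and black diamonds the 3 genes that chose the cells.

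Lysosomal genes were higher as a group. Of 13 cathepsins and cystatins compared, 4 were at least 2-fold higher and 0 lower, with a median log2 ratio of 0.66 against -0.16 over all genes. Ctsd (chr7:142375911-142388038, minus strand), the main aspartic protease of the lysosome, stood at 17128 against 7009 CPM (log2 1.29), with per-cell medians of 151 and 68.2 UMIs per 10000. Each of the 166 triple-positive cells held a Ctsd UMI, as did 154 of the others, and the per-cell ranges overlapped, from 2.53 to 630 and from 0 to 441. Ctsl, a cysteine protease, stood at 3389 against 1293 CPM (log2 1.39), of which 18.2% lay in 1 cell, and the log2 ratio was 1.12 without it. Ctsb, another cysteine protease, stood at 8967 against 4213 CPM (log2 1.09), and Ctsa at 1625 against 791 CPM (log2 1.04). Of 31 genes of the lysosomal membrane, hydrolases and proton pump, 3 were at least 2-fold higher and 0 lower, with a median of 0.52. They included Cd63, a tetraspanin of late endosomes, at 2968 against 1325 CPM (log2 1.16), and the alpha-galactosidase Gla at 98.7 against 43.9 CPM (log2 1.17). Both groups stayed above 0 in all 3 depth bands of the pairs, with medians of 0.69, 0.87 and 0.63 for cathepsins and 0.81, 0.59 and 0.57 for the other lysosomal genes, for pairs under 2000, from 2000 to 8000 and from 8000 UMIs. Without oligodendrocyte-like and border macrophage-like cells the medians were 0.31 and 0.33, 11 of 13 and 26 of 31 genes were above 0 in both comparisons, and 0 cathepsins and 1 other lysosomal gene were at least 2-fold higher.

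The lipid-associated and disease-associated program, a list of 24 measured genes chosen with earlier results of these data known, had 8 genes at least 2-fold higher and 0 lower, with a median log2 ratio of 0.73. Lgals3, which binds damaged endosomal membranes, stood at 1003 against 410 CPM (log2 1.29). Igf1, a growth factor of activated microglia, stood at 633 against 250 CPM (log2 1.34), and had a UMI in 127 triple-positive and 79 other cells. Pld3, a lysosomal exonuclease, stood at 757 against 322 CPM (log2 1.23). Trem2, the lipid receptor, stood at 2398 against 1248 CPM (log2 0.94) and its adaptor Tyrobp at 5280 against 2864 CPM (log2 0.88), both short of 2-fold. Without oligodendrocyte-like and border macrophage-like cells 0 of the 24 genes were at least 2-fold higher, and 19 were above 0 with a median of 0.52. Lgals3 was then 0.85, Fabp5 0.86, Igf1 0.98 and Trem2 0.68.

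Of 9 apolipoprotein and efflux genes, with a median log2 ratio of 0.37, 1 was at least 2-fold higher, Apoc4, the neighbour of Apoc1 in an apolipoprotein cluster, at 587 against 253 CPM (log2 1.21). Apoe, the main lipid carrier of glia, was the most abundant of them and stood at 107535 against 78448 CPM (log2 0.46). Every one of the 332 matched cells held Apoe UMIs, and the per-cell medians were 913 and 585 UMIs per 10000. Without oligodendrocyte-like and border macrophage-like cells its log2 ratio was 0.06. The cholesterol exporter Abca1 had a log2 ratio of 0.42 and Abcg1 of 0.37. Of 14 genes of lipid binding, storage and hydrolysis, with a median of 0.53, Fabp5 and Fabp3 were at least 2-fold higher. The acid lipase Lipa had a log2 ratio of 0.85, the lipid droplet coat gene Plin2 of 0.59 and lipoprotein lipase Lpl of 0.31. Of 8 lipid uptake receptors 0 were at least 2-fold higher and 1 lower, Stab1, a scavenger receptor of resident macrophages (log2 -1.04).

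MHC class II genes were lower in triple-positive cells, and MHC class I genes lay near the rest. Of 6 genes of MHC class II, which presents peptides to helper T cells, 4 were at least 2-fold lower, with a median log2 ratio of -2.40. H2-Eb1 stood at 239 against 3403 CPM (log2 -3.83), H2-Aa at 229 against 2493 CPM (log2 -3.44) and H2-Ab1 at 311 against 2887 CPM (log2 -3.21). H2-Aa had a UMI in 32 triple-positive and 45 other cells, and a highest value of 78.8 and 214 UMIs per 10000, so that the difference lay in a minority of cells with high levels. The matched others included the 25 border macrophage-like cells, and without these and the oligodendrocyte-like cells H2-Eb1 was -2.54, H2-Aa -2.08 and H2-Ab1 -1.82. The median of the group was -0.65 in pairs under 2000 UMIs and -2.69 in pairs from 8000 UMIs. Of 11 MHC class I genes, which display peptides to cytotoxic T cells, 1 was at least 2-fold lower, with a median of -0.22 against -0.16 over all genes, and with medians of 0.44, 0.41 and -0.36 in the 3 depth bands. Ribosomal protein genes had a median of 0.00 with 0 of 36 past 2-fold.

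Other large differences moved with the mixed makeup of the matched cells. Myelin genes were lower, with 9 of 12 past 2-fold and a median of -1.65, and the median was -0.73 without oligodendrocyte-like and border macrophage-like cells. Of the 12 genes with the largest lower ratios, C4b, a complement component, changed from -3.38 to -0.79, the interferon-induced Ifitm3 from -3.32 to -1.01 and Tsc22d1 from -2.66 to -0.60 when these cells were left out. A single cell held 56.5% of the Tsc22d1 UMIs and 47.1% of those of Cebpd. The chemokine Ccl12 changed from -4.17 to -1.79, and Cd93, Cldn11 and Mal from -2.83, -3.02 and -3.11 to -1.63, -1.23 and -0.91. The chemokine Cxcl13 went from -3.31 to -3.50. It stood at 106 against 1053 CPM, with UMIs in 24 triple-positive and 38 other cells, 40.6% of the latter's UMIs in 1 cell, and a ratio of -2.59 without that cell. Among 14 chemokine and cytokine genes 6 were at least 2-fold lower, such as Ccl4 (log2 -1.55) and Ccl3 (log2 -1.10). Their median of -0.80 was carried by deep pairs, being -0.91 from 8000 UMIs and 0.55 under 2000 UMIs, and it was -0.21 without the cells named above. Of 21 immediate early genes, which cells switch on within minutes of disturbance such as tissue dissociation, 5 were at least 2-fold lower with a median of -0.69, and 0 were past 2-fold without those cells, with a median of -0.13. The part of cell makeup in these differences was not tested further.

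**Figure D3:**
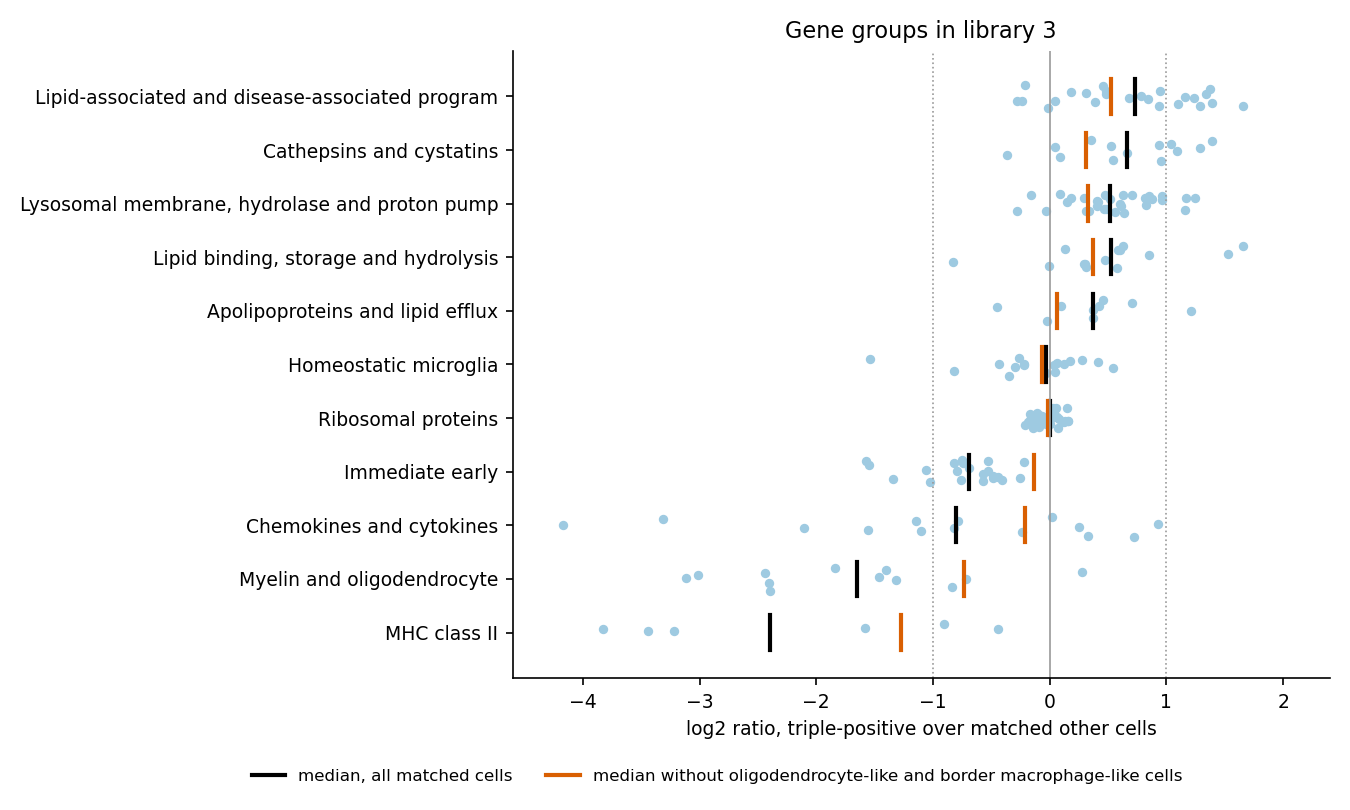
log2 ratios of triple-positive over depth-matched other cells in library 3 (x axis) for the genes of 11 groups (rows); each point is a gene, dotted lines mark 2-fold, and bars are medians over all matched cells (black) and without oligodendrocyte-like and border macrophage-like cells (orange). The cathepsin median goes from 0.66 to 0.31 and the MHC class II median from -2.40 to -1.27, while ribosomal genes stay at 0.

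The cells outside the rule were not alike, since 99 of the 166 matched others carried 2 of the 3 genes, 48 carried 1 and 19 none. Triple-positive cells were therefore also paired separately with cells that carried 2 of the genes (151 pairs) and with cells that carried 0 or 1 (110 pairs). Ctsd had a log2 ratio of 0.98 over the former and 2.53 over the latter. The pattern recurred for Creg1 (1.003 and 2.38), Igf1 (0.99 and 2.52), Fabp5 (1.002 and 2.29), Trem2 (0.64 and 2.09) and Lgals3 (0.997 and 1.51). Apoe differed little from cells with 2 of the genes, with a log2 ratio of 0.09, but by 1.78 from cells with 0 or 1, and Lpl went from -0.04 to 2.16. Il18bp stood apart from both, at 1.67 and 3.81. Cxcl13 ran the other way, at -3.51 and -1.06, and Folr2 at 2.86 and 0.43. The plot by number of genes carried shows these ratios. The sets of pairs differed in depth, with medians of 2913 and 2057.5 UMIs for their triple-positive cells. Few border macrophage-like cells of library 3 carried Apoc1 (18.2%) or Gpnmb (6.06%), and the cluster makeup of these pairs was not examined. The part of cell makeup and depth in the ratios was not tested.

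A comparison over 2 libraries was possible only with a wider class, cells with at least 2 of the 3 genes, which was chosen after the values were seen. It gave 21 pairs in library 1 and 174 pairs in library 3, which included 2 and 67 triple-positive cells. The medians were 1040 and 1051 UMIs in library 1, but 1260.5 and 1016.5 UMIs in library 3, so the wider class was deeper there, and the part of this gap in the calls was not tested. Tested with limma on mean ln values with the library as a block, 83 of 2347 gene entries were called at an adjusted p under 0.05 (3.54%), 73 higher (3.11%) and 10 lower (0.426%), and 374 had an unadjusted p under 0.05. The fit had 1 residual degree of freedom per gene and took the spread from the trend across genes, so its p-values are too small for a claim about animals. Cathepsins and cystatins had 10 of 13 tested genes called higher and 0 lower, with a median difference of 0.89 ln units against 0.02 over all genes. The lipid-associated program had 12 of 24 called higher and 0 lower, and the other lysosomal genes 8 of 26. By edgeR these counts were 9, 16 and 8, and by DESeq2 6, 8 and 3, with 0 lower by either. Of 37 ribosomal protein genes limma called 3 higher, with a median of 0.28, and edgeR and DESeq2 called 0, while 12 were higher at an unadjusted p under 0.05 by limma. The complement genes C1qa, C1qb and C1qc were called higher, but without oligodendrocyte-like cells limma called none of the 3, and without border macrophage-like cells as well it called C1qa and C1qc. Of 7 MHC class II genes limma called 0, with 0 at an unadjusted p under 0.05, whereas edgeR on summed UMIs called 5 lower and DESeq2 called 4 lower.

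In 5 limma fits, namely this one and those without the block, with a wider match, without oligodendrocyte-like cells and without border macrophage-like cells as well, 11 genes were called each time, and all 11 were higher in both libraries. A call in this fit largely requires such agreement, as 72 of the 83 called entries were higher and 10 lower in both libraries. The 5 fits draw on the same 2 libraries and are not separate evidence. The 11 genes included Apoe, Ctsd, Ctsb, Ctsl, Cst3 (an inhibitor of cathepsins), Cd9 (a tetraspanin), Tyrobp, Lyz2 (lysozyme), Lpl and Ssr4 (a subunit of the translocon complex). Ctsd stood at 11822 against 2343 CPM in library 1 and at 15055 against 3396 CPM in library 3. Apoe stood at 73414 against 35118 CPM in library 1 and at 94914 against 32977 CPM in library 3. Lpl stood at 1802 against 101 CPM in library 1 and at 821 against 231 CPM in library 3. In library 1 a single triple-positive cell held 38 of the 93 Lpl UMIs of the wider class. Lyz2 was higher by mean ln values in both libraries but stood at 3120 against 8340 CPM in summed UMIs of library 1, and neither edgeR nor DESeq2 called it. Of the 11 genes edgeR called 9, all but Lyz2 and Apoe, and DESeq2 called 8, all but Lyz2, Tyrobp and Ssr4. Lgals3 differed by 0.85 ± 0.18 ln units (SE, limma adjusted p = 0.00013), with 930 against 60.6 CPM in library 1 and 797 against 318 CPM in library 3, and it was no longer called without the oligodendrocyte-like and border macrophage-like cells. Fabp5 differed by 0.39 ± 0.16 ln units (SE) and was not called by limma (adjusted p = 0.192). The plot of both libraries shows these differences.

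**Figure D4:**
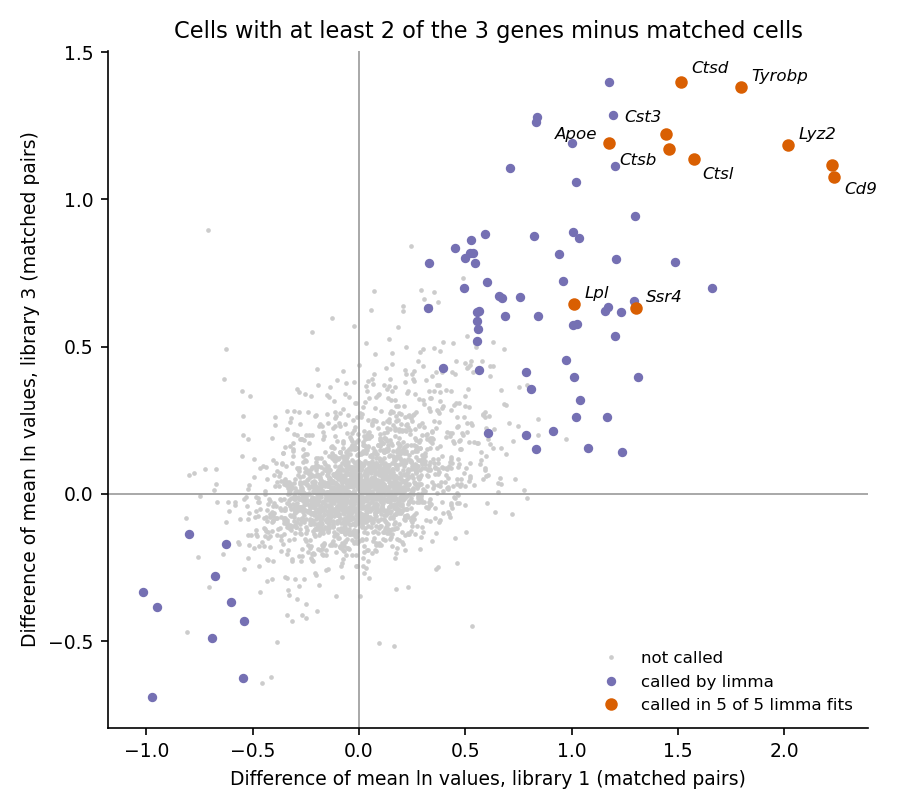
Difference of mean ln values between cells with at least 2 of the 3 genes and depth-matched cells, in library 1 (x axis, 21 pairs) and library 3 (y axis, 174 pairs); each point is a gene, purple marks genes called by limma and orange the 11 genes called in 5 of 5 fits. The 11 genes lie above 0 on both axes, with Ctsd at 1.51 and 1.40.

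Across all cells of a library, the genes of these cells followed the injured libraries to unequal extents. Gpnmb stood at 1314 CPM in injured library 3 and 57.9 CPM in injured library 1, and had 0 UMIs in uninjured libraries 2 and 4. Spp1 stood at 13402, 841, 36.3 and 93.0 CPM in libraries 3, 1, 2 and 4, and Apoc1 at 3774, 335, 16.7 and 23.3 CPM. Both injured libraries were above both uninjured libraries for each of the 3 genes, and library 3 was above library 1. Of the 12 genes with the largest higher ratios, 6 were higher in both injured than in both uninjured libraries (Fabp5, Fabp3, Dkk2, Pianp, Creg1 and Ctsl), against 16.7% of all 4820 genes compared. The count of 6 goes by CPM value alone. In library 1 Dkk2 had 1 UMI (3.05 CPM) and Pianp 3 UMIs (9.14 CPM), against 0 in libraries 2 and 4. The upper Poisson limits of these values of 0 were 10.3 CPM in library 2 and 42.9 CPM in library 4. The order of Dkk2 and Pianp thus lay within counting error. Fabp3, at 42.7 CPM in library 1, also lay under the library 4 limit. For Creg1 the Poisson interval of library 1 (212 to 327 CPM) overlapped that of library 4 (63.9 to 229 CPM). The 12 genes were chosen within library 3, 1 of the libraries compared. The other 6 overlapped, such as Folr2 at 36.5, 140, 483 and 163 CPM, Timp2 at 880, 460, 611 and 174 CPM and Il18bp at 97.1, 0, 5.58 and 0 CPM in libraries 3, 1, 2 and 4. In the same order of libraries Ctsd stood at 14279, 5772, 1250 and 2140 CPM, Lpl at 919, 430, 39.1 and 34.9 CPM and Lgals3 at 944, 238, 58.6 and 11.6 CPM. H2-Aa, lower in triple-positive cells, stood at 631, 811, 2110 and 861 CPM. With 2 libraries against 2 an exact test cannot go below p = 0.333. Border macrophage-like cells were 33 of 682 cells in library 3, 9 of 146 in library 1, 47 of 103 in library 2 and 3 of 28 in library 4, and microglia-like cells were 18 in library 2, 11 in library 4 and 0 in the injured libraries. Fewer cells of a type and less RNA per cell cannot be told apart in these sums. The comparison of triple-positive cells between injured and uninjured nerve had no value, since the uninjured libraries held 0 of them.

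The triple-positive cells outside library 3 were few and mostly near the edge of the rule. The 2 cells of library 1 had 10930 and 4365 UMIs, with 1 and 4 of Gpnmb, 1 and 1 of Spp1 and 4 and 1 of Apoc1. The first held 38 Lpl and 764 Apoe UMIs. In retina the cell of uninjured library 5, at 11844 UMIs, held 13 Gpnmb, 160 Spp1, 6 Apoc1, 37 Fabp5 and 1163 Apoe UMIs. A cell of the injured pool with 20325 UMIs held 12 Gpnmb, 12 Spp1, 20 Lgals3 and 44 Fabp5 UMIs. The other 4 cells of that pool held 1 or 2 Gpnmb UMIs each. These retina values are whole counts as deposited, and no comparison was made between tissues.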

How the data were processed

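Per the submitters' processing notes and labels, reads were processed with bcl2fastq 2.17.1.14, Cell Ranger 1.3 (build mm10) and Seurat 4.0.3, and, per the series' design text, cells with 200 to 6500 genes were kept. The authors deposited optic nerve values as natural log (ln) values of 1 plus 10000 times UMIs over the cell's total, and retina values as raw counts. All 1374534 optic nerve values above 0 gave whole UMIs within 0.01, so counts were recovered. Depth was 328114, 358305, 5424786 and 85976 UMIs in optic nerve libraries 1 to 4 (a median of 1159, 2093, 2176.5 and 1518.5 per cell). Symbols came from GENCODE M21 for 31394 of 31833 Ensembl identifiers.

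Triple-positive cells were matched 1 to 1 by total UMIs, with totals at most 25% apart. Ratios compare summed UMIs per 1000000 (CPM) of genes with at least 50 UMIs in the matched cells and a UMI in 10% of them, with exact 95% Poisson, conditional binomial or Clopper-Pearson intervals. The upper limit behind a share of 0 was set at 3 counts. Cells were clustered with scanpy 1.11.5 without the 3 genes. The wider class was tested with limma 3.58.1 (trend), edgeR 4.0.16 and DESeq2 1.42.0, with Benjamini-Hochberg adjustment at 0.05. The planned limma test of triple-positive cells needed 2 libraries with at least 5 pairs and was replaced by ratios, and the named genes by the 12 largest ratios in each direction at a level of at least 5 log2 CPM with the same sign in mean ln values, a rule made after the values were seen that left out unnamed gene models, haemoglobin, mitochondrial, Xist and chromosome 18 genes. Members, markers and gene lists were chosen with earlier results of these data known. Both the ratio rule and limma were tested on simulated data. The simulated UMIs had counting error only, so they cannot show how spread between cells or a mixed cell makeup affects the calls. Some single genes that count in the groups are not reported here by name.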

Additional observations from a re-analysis of the deposited data

How the results depend on the processing

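The mean share of triple-positive cells was higher in injured than in uninjured libraries under each of 4 settings. The uninjured libraries held 0 such cells and no setting can add one, so this direction was fixed in advance. The difference was 11.3 points after thinning to 1000 UMIs and 19.1 after thinning to 2000. It was 21.7 points without oligodendrocyte-like cells and 13.4 with at least 2 UMIs of each gene. These 4 values came almost wholly from library 3. With at least 2 UMIs of each gene library 1 held 0%, as did libraries 2 and 4, against 26.8% in library 3. After thinning to 1000 UMIs library 1 stood at 0.0457%. Without 1 library the difference was 1.37 to 39.6 points, the lowest being without injured library 3. None of these designs could pass the threshold. Counts of genes at least 2-fold higher and lower in triple-positive cells were 62 and 287. They stayed within 1.5 times of these with a 1.1-fold or 1.5-fold caliper, no matching or the 3 genes left out of the totals. The same held with no oligodendrocyte-like cells or a minimum of 20 UMIs. The genes themselves changed more than the counts. Shared with the first counts were 38 and 169 with the 1.1-fold caliper, 46 and 180 with the 1.5-fold caliper and 34 and 147 without matching. With the 3 genes left out 40 and 164 were shared, without oligodendrocyte-like cells 53 and 219, and with 20 UMIs all 62 and 287. The counts were 1143 and 4016 with all genes and 27 and 53 with genes in at least 25% of cells. Without oligodendrocyte-like and border macrophage-like cells they were 29 and 63, and after thinning to 1000 UMIs 28 and 27 (635 genes left). With at least 100 UMIs they were 39 and 122, and with each cell weighing the same 159 and 634. With at least 2 UMIs of each gene 40 were higher. The filters and thinning change how many genes are compared; for the other settings the cause was not tested. The minimums of 20 and 100 UMIs and the equal weighting were chosen after seeing the data. Settings that change only which genes are compared (all genes, genes in at least 25% of cells, at least 20 or 100 UMIs) leave each ratio as it was. Their values repeat the main values in the counts that follow and could not turn. The 24 largest genes were also chosen to have the same sign in mean ln values. Of 310 values of these 24 genes over 13 settings, 308 kept their direction and 290 also stayed past 2-fold. Of the other 2, both after thinning to 1000 UMIs, Acp5 stood at 0 and Folr2 turned to -0.42. At that setting Ccl3 turned to 0.044, Ifi27l2a to 0.81 and Igfbp4 to 2.00. Without oligodendrocyte-like cells Mag turned to 0.022, and without border macrophage-like cells as well Cp turned to 1.09.

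For cells with at least 2 of the 3 genes, also chosen after seeing the data, limma called 73 higher and 10 lower entries. With no replicate block, the library being the block that pairs the classes, the counts were 26 and 1. They were 48 and 1 with a 1.5-fold caliper, 19 and 1 without oligodendrocyte-like cells, 18 and 0 without border macrophage-like cells as well, and 39 and 1 with genes in at least 25% of cells. edgeR called 134 lower (71 higher) and DESeq2 18 higher and 21 lower. In the setting with 0 lower genes limma gave 139 genes an unadjusted p under 0.05 in either direction. The cause was not tested. Leaving out 1 library leaves no residual degrees of freedom there. No planned edgeR, DESeq2 or block fit of triple-positive cells was run, as 1 library had pairs, and no contrast of them between injured and uninjured nerve, as the latter held 0. Depth limits the 104 deepest members, which had no partner.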
